A study of Mus musculus with 29 samples.

Results

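The hematopoietic stem cell (HSC) transcription factor core is described here as 10 genes, Gata2, Runx1, Tal1, Lmo2, Lyl1, Fli1, Erg, Meis1, Hlf and Mecom. They were selected by symbol, as regulators known to set HSC identity. The selection rule uses no measured value, but the members were chosen with earlier results of these data known. All 10 are among the 55376 gene symbols of the count files and all 10 are among the 33690 genes that passed the filter on low counts and were tested. RNA-seq of mouse HSCs was read in 19 libraries, 4 labelled young wild type (YWT), 4 labelled old wild type (OWT), 4 labelled young Gadd45b knockout (YKO) and 7 labelled old Gadd45b knockout (OKO). Gadd45b encodes a stress response protein that has been linked to DNA demethylation, and the design asks how its loss and age relate to the HSC transcriptome.

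The study's methods describe a Gadd45b knockout line that is held by a public repository, bred and aged in house, and an HSC gate of LSK cells (negative for lineage antigens and positive for Sca-1 and c-Kit) that lack CD34 and Flk2 and carry CD150. The labels give age only as young or old, and female for every library, while the study's methods state that both sexes were used. Whole genome bisulfite libraries of the series were not analysed here. Nothing in the labels names the animal behind each library, so p-values measure the spread between these libraries.

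GATA2, RUNX1, TAL1, LYL1, FLI1 and ERG are DNA-binding factors that sit together, with the bridging protein LMO2, on many enhancers of blood stem and progenitor cells. MEIS1 is a homeobox factor that binds DNA together with other homeobox proteins. HLF and MECOM are known as markers and guardians of the most primitive HSCs, and both are switched down as the cells differentiate. In bulk RNA-seq, fewer cells of a type and less RNA per cell cannot be told apart.

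Library totals ran from 22197555 to 77970627 counts on genes. Values are CPM, the reads of a gene brought to a common library size, scaled by the trimmed mean of M-values (TMM) of edgeR, which sets a factor per library, and ± gives the SD over the 4 libraries of YWT, OWT or YKO or the 7 of OKO. OKO1, OKO2 and OKO3 stood apart, with TMM factors of 1.24 to 1.83 against 0.692 to 1.22 in the other 16, so scaling by the library total alone raises their values relative to those given here. The titles of 8 libraries, the 4 OWT and OKO4 to OKO7, begin with IB15, and the study's sequencing summary lists these as another batch than the remaining 11. Age in wild type and this batch cannot be told apart. Reads of Gadd45b itself averaged 10.5 ± 4.69 CPM across YWT and 11.5 ± 2.63 across OWT. Libraries labelled YKO held 9.53 ± 4.64 CPM of it, close to YWT, and OKO libraries held 4.45 ± 1.39. Its level thus gave no check of the YKO label, on which every direction drawn from YKO rests. All 10 HSC markers on a list that includes Kit, Slamf1, Procr and Fgd5 had a median over 1 CPM in each group. All 7 erythroid and all 5 plasma cell markers did so as well, so this bar does not tell cell types apart. Marker sums further on are CPM scaled by the library total.

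Promoter sequence of RefSeq (GRCm38.p6) was found for 8 of the 10 members, with no entry for Lmo2 and Fli1. Erg and Hlf are shown because Erg had the smallest p of any member in both comparisons of age, and Hlf the smallest p in OKO vs OWT. Each run holds the 250 bases before the most upstream start, on the minus strand, written 5′ to 3′. Capitals mark matches on either strand to GATAA (GATA factors), CAGNTG (the E-box of TAL1 and LYL1 partners), GGAAG (ETS factors such as FLI1 and ERG), TGTGGT (RUNX factors) or TGACAG (MEIS factors). A base may belong to more than 1 match.
Erg, chr16:95586594-95586843: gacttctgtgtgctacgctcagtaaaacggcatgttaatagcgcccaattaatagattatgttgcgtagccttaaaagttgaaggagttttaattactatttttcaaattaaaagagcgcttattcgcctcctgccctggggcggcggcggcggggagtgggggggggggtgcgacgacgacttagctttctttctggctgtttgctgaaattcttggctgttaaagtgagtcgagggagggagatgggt
Hlf, chr11:90390918-90391167: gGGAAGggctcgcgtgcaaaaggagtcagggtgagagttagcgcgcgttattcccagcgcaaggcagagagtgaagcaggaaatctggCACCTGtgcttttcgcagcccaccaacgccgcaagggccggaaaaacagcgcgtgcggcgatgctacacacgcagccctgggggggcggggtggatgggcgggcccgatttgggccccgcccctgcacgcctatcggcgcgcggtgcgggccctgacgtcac
The Erg window held none of the 5 motifs, so it has no capitals, and the Hlf window held 1 ETS and 1 E-box match. GENCODE M21 places no exon in either window. Over the 8 members with a window, GATAA was found in 2, CAGNTG in 4, GGAAG in 4, TGTGGT in 1 and TGACAG in 0. Of all 32851 windows of the same length, 22.6% held GATAA, 44.8% CAGNTG, 64.1% GGAAG, 14% TGTGGT and 15.9% TGACAG. These are letter matches in short windows and carry no information on binding.

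Compared per length, the members spanned a wide range of levels in the same order at the top in every library. CPM per kilobase of the exons annotated for each gene put Lmo2 first, at 391 ± 46.5 in YWT, 509 ± 80.9 in OWT, 335 ± 94.9 in YKO and 391 ± 83.6 in OKO. That placed Lmo2, which has no DNA-binding domain of its own, within the highest 0.286% of 33161 ranked genes in YWT and within 0.461% in YKO. Lmo2 lies on chromosome 2 of mm10 (103957986 to 103981878), and in all 4 groups its lowest library was above the highest library of the next member.

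Gata2 (chromosome 6, 88193891 to 88207032), a zinc finger factor needed for HSC survival, was second in every library, with 86.9 ± 5.42 CPM per kilobase in YWT and 94.3 ± 6.83 in YKO. Fli1 (chromosome 9, 32422204 to 32542861), an ETS factor, came next in every library, with 73.4 ± 9.20 in YWT and 54.8 ± 6.60 in YKO. Gata2 and Fli1 overlapped in YWT, OWT and OKO and did not overlap in YKO.

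Hlf (chromosome 11, 90336536 to 90390895) and Meis1 (chromosome 11, 18879817 to 19018985) shared the next places in every library, and their ranges overlapped in all 4 groups. In YWT they stood at 42.2 ± 7.97 and 42.1 ± 6.84 CPM per kilobase. Meis1 shares 1029 exon bases with Gm37818 on its own strand and 896 with Gm16140 on the other, and since no strand setting is given, reads in these stretches cannot be assigned with certainty. Lyl1 (chromosome 8, 84701457 to 84704715), a helix-loop-helix factor, followed in every library except OKO2, where Erg was above it, at 23.7 ± 2.34 in YWT.

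The lowest 4 members changed places from library to library. In YWT these were Mecom (chromosome 3, 29951296 to 30548008) at 13.2 ± 2.21 CPM per kilobase, Tal1 (chromosome 4, 115056426 to 115071755) at 12.4 ± 1.60, Erg (chromosome 16, 95359169 to 95586593) at 10.9 ± 1.90 and Runx1 (chromosome 16, 92601466 to 92826149) at 9.93 ± 1.64. Each of the 4 overlapped the next one in the order within every group. Mecom and Runx1 have long exon unions, and per kilobase of the longest transcript they stood at 28.9 and 20.4 in YWT, above Tal1 at 12.9 and Erg at 11.7, with Mecom also above Lyl1 at 23.7. The order of the lower members therefore depends on which length is used. Gene counts also do not separate the long Mecom transcripts from the shorter EVI1 form.

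Relatives of the members differed widely in level per length. Meis1 stood at 42.1 CPM per kilobase in YWT against 3.42 ± 1.06 for Meis3 and 0.352 ± 0.109 for Meis2. Lmo2 stood at 391 against 5.39 ± 0.894 for Lmo4 and 3.00 ± 0.195 for Lmo1. The TAL1 relative Tal2 was near absent, with 0.0587 ± 0.0300 in YWT. Gata1, the erythroid and megakaryocyte counterpart of Gata2, reached 84.9 ± 25 in YKO against 94.3 ± 6.83 for Gata2. In YWT Gata1 stood at 35.8 ± 16.6, in OWT at 21.7 ± 14 and in OKO at 27.9 ± 24.7. The E-proteins that dimerize with TAL1 and LYL1 were led by Tcf3, at 64.2 ± 16.4 in YWT, with Tcf12 at 4.25 ± 0.728 and Tcf4 at 3.82 ± 0.857.

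**Figure D1:**
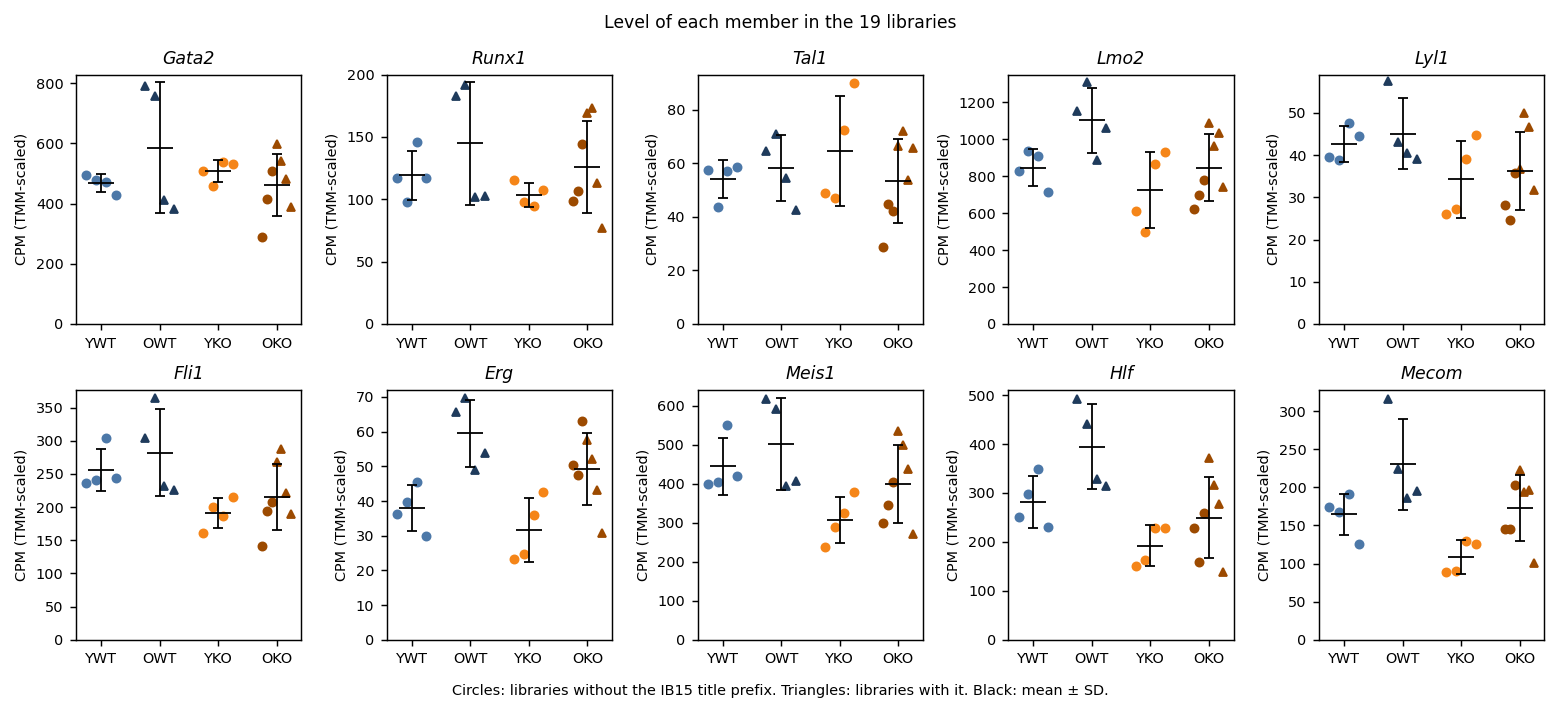
Level of each member as TMM-scaled CPM (vertical axes, linear from 0) in YWT, OWT, YKO and OKO, with 1 point per library, the mean and SD in black, and triangles for the 8 libraries of the IB15 batch. The groups overlap for most members, and within OWT 2 libraries lie well above the other 2 for Gata2 and Runx1.

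The first comparison, OWT vs YWT, asked how the core differs with age in wild type HSCs. None of the 10 members passed the test in the edgeR quasi-likelihood fit (a call needs an adjusted p below 0.05 with more than 1.5-fold difference), where 0.00297% of all tested genes passed. All 10 had a positive log2 fold change, with a median of 0.30, against −0.05 over all 33690 genes and 0.05 over the 12324 better expressed genes, whose mean CPM was 5 or more. The smallest adjusted p among the members was 0.819 (edgeR quasi-likelihood test), 1 member and 1476 genes had an unadjusted p under 0.05, and DESeq2 also called 0 members. With 95% intervals reaching 0.47 to 0.58 to either side on the log2 scale, the intervals of 7 members lay within a 2-fold change in either direction and those of the other 3 did not.

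Erg, an ETS factor required for HSC self-renewal, had the largest difference of the 10. It stood at 36.3, 39.9, 45.6 and 29.8 CPM in YWT1 to YWT4. In OWT1 to OWT4 it stood at 65.7, 69.6, 49.0 and 53.9 CPM, so every OWT library lay above every YWT library. The log2 fold change was 0.65 with a standard error of 0.23 (95% interval 0.17 to 1.14), at an edgeR quasi-likelihood p of 0.0106 and an adjusted p of 0.819. Erg was the 1 member without overlap in that direction, where 2.24% of all genes lay wholly higher in OWT, and 0 members lay wholly lower, as 1.9% of genes did. With CPM scaled by the library total alone, OWT and YWT overlapped for each member, Erg included.

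Mecom, at 0.48 (standard error 0.25), and Hlf, at 0.48 (standard error 0.28), came next in log2 fold change. Mecom stood at 174, 167, 191 and 126 CPM in YWT1 to YWT4 and at 316, 224, 186 and 196 in OWT1 to OWT4. Hlf stood at 250, 298, 350 and 230 CPM in YWT1 to YWT4 and at 492, 442, 329 and 315 in OWT1 to OWT4. For both genes the groups overlapped, and OWT1 and OWT2 were the high libraries. The same 2 libraries were high for Gata2, at 790 and 757 CPM against 413 and 381 in OWT3 and OWT4, and for Runx1, the core binding factor that starts definitive hematopoiesis, at 183 and 192 against 102 and 103. YWT ranged from 428 to 497 CPM for Gata2 and from 97.8 to 146 for Runx1, so OWT libraries lay on both sides of YWT for Gata2. The remaining log2 fold changes were 0.38 for Lmo2, 0.32 for Gata2, 0.28 for Runx1, 0.18 for Meis1, 0.14 for Fli1, 0.10 for Tal1 and 0.08 for Lyl1.

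OKO alone holds libraries of both batches. In a fit with a batch term the direction in OWT vs YWT turned for 5 of the 10, to −0.64 for Tal1, −0.41 for Lyl1, −0.28 for Fli1, −0.14 for Meis1 and −0.07 for Lmo2. Erg stood at 0.88 there, and the median over better expressed genes was −0.43. In the same comparison the summed CPM of the 9 B cell markers was 67.1 to 218 in OWT against 235 to 446 in YWT, and that of the 10 granulocyte and monocyte markers 634 to 960 against 226 to 435. By median, Igll1 (4.55 CPM in OWT, 0.679 in YWT) and Vpreb1 (5.30 and 4.45) of the B cell list went the other way. So did Csf1r of the granulocyte and monocyte list (16.1 and 26.0), while the rest followed the sums. The part of these cells in the differences was not tested.

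YKO vs YWT asked what the Gadd45b knockout label goes with in young HSCs. None of the 10 members passed the edgeR test, against 0.0267% of all genes, and 8 had negative log2 fold changes. The median was −0.29 for the members, −0.02 over all genes and 0.03 over better expressed genes. The smallest adjusted p of a member was 0.953 (edgeR quasi-likelihood test), 2 members and 1548 genes had an unadjusted p under 0.05, and DESeq2 called 0 members. Gata2, with a log2 fold change of 0.12, and Tal1, with 0.25, were the members on the other side of 0.

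Mecom stood at 88.6, 90.3, 129 and 126 CPM in YKO1 to YKO4, against 126 to 191 in YWT. The groups met only at the lowest YWT library, YWT4, and the log2 fold change was −0.60 with a standard error of 0.25 (95% interval −1.12 to −0.08, edgeR unadjusted p of 0.0248). Meis1 stood at 237, 290, 324 and 378 CPM in YKO1 to YKO4 and at 400, 404, 551 and 420 in YWT1 to YWT4. Its log2 fold change was −0.53 with a standard error of 0.25 (edgeR unadjusted p of 0.0474). Hlf stood at 150, 162, 229 and 229 CPM in YKO1 to YKO4, against 230 to 350 in YWT, with a log2 fold change of −0.55 and a standard error of 0.28 (edgeR unadjusted p of 0.0630).

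Fli1 stood at 161, 200, 187 and 215 CPM in YKO1 to YKO4 against 236 to 304 in YWT, with a log2 fold change of −0.42 and a standard error of 0.23. Fli1, Meis1 and Hlf each lay lower in all 4 YKO libraries than in any YWT library, which makes 3 of 10 members beside 3.01% of all genes. For Hlf the highest YKO library, at 229 CPM, lay next to the lowest YWT library, at 230.1, and scaling by the library total left 0 of the 3 without overlap. No member lay wholly higher in YKO, where 2.12% of genes did. Lyl1 at −0.32, Erg at −0.26, Lmo2 at −0.22 and Runx1 at −0.20 had the smaller negative log2 fold changes.

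YKO1 and YKO2 were lower than YKO3 and YKO4 for Tal1 (48.8 and 46.9 CPM against 72.4 and 90.1), for Lmo2 (612 and 496 against 864 and 931), for Lyl1 (25.9 and 27.2 against 39.1 and 44.8) and for Erg (23.4 and 24.8 against 35.8 and 42.6). The summed CPM of plasma cell markers was 7424 and 13005 in YKO1 and YKO2 against 710 and 757 in YKO3 and YKO4. In YWT it was 18457 in YWT2 and 1279 to 1996 in the others. Jchain of this list alone reached 11936 CPM in YKO and 17174 in YWT, so the highest sums are largely this gene. YWT2 had the lowest Tal1 of YWT, at 43.7 CPM, and the lowest Lyl1, at 38.8. Its Erg, at 39.9, lay inside the YWT range, and its Lmo2, at 937, was the highest of YWT. With scaling by the library total, Lmo2 of YWT2 was the lowest of YWT, at 648. The 7 erythroid markers summed to 1404 to 3970 CPM in YKO and to 675 to 1953 in YWT. Car1 of that list alone had a median of 2587 CPM in YKO and 589 in YWT. The part of either marker list in the members' values was not tested.

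OKO vs YKO asked the age question within the knockout. None of the 10 members passed the edgeR test with TMM scaling, against 1.29% of all genes, yet this was the comparison in which the processing decided the call. The members' median log2 fold change was 0.25, with 8 positive and 2 negative, against 0.23 over all genes and −0.18 over the better expressed genes. The smallest member adjusted p was 0.136 (edgeR quasi-likelihood test), and 2 members and 5330 genes had an unadjusted p under 0.05. No member lay wholly higher in OKO, as 1.12% of genes did, or wholly lower, as 1.48% did.

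Erg ranged from 30.8 to 63.2 CPM in the 7 OKO libraries, with a median of 50.5, and in YKO from 23.4 to 42.6. The 6 OKO libraries other than OKO7 lay above the highest YKO library. The log2 fold change was 0.64 with a standard error of 0.21 (95% interval 0.20 to 1.08), with an edgeR quasi-likelihood adjusted p of 0.136. Mecom ranged from 101 to 223 CPM in OKO, with a median of 194, and from 88.6 to 129 in YKO, again with only OKO7 inside the YKO range. The log2 fold change was 0.67 with a standard error of 0.23 (95% interval 0.20 to 1.14), with an edgeR quasi-likelihood adjusted p of 0.143.

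Both genes were called under several other settings, each of which also called more genes overall. With only genes of mean CPM 5 or more kept, Erg had a log2 fold change of 0.92 (edgeR adjusted p of 0.0133), Mecom 0.92 (0.00796) and Meis1 0.60 (0.0286), where 12.1% of the genes tested were called. Upper-quartile scaling gave 0.82 for Erg (edgeR adjusted p of 0.0342) and 0.83 for Mecom (0.0206), with 3.2% of genes called. DESeq2 gave 0.71 for Erg (adjusted p of 0.0153) and 0.74 for Mecom (0.0100), with 8.5% of genes called. Without OKO7, edgeR called both genes, at 0.73 (adjusted p of 0.0352) for Erg and 0.77 (adjusted p of 0.0353) for Mecom, with 5.47% of genes called. Without a filter, with scaling by the library total or with the 2 groups alone neither was called, with edgeR adjusted p of 0.0745 to 0.265 for Erg and of 0.0513 to 0.259 for Mecom, and the direction was the same.

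Within the batch that holds all YKO libraries, OKO1, OKO2 and OKO3 stood at 50.5, 47.6 and 63.2 CPM for Erg and at 146, 146 and 204 for Mecom, above every YKO library. The share of all genes that lay wholly apart in these libraries was not counted. There the log2 fold change was 0.83 for Erg (edgeR adjusted p of 0.0164) and 0.67 for Mecom (0.0415), beside 17.9% of genes called. Tal1, the helix-loop-helix factor at the head of the blood program, stood at 28.6, 45.0 and 42.1 CPM in these libraries against 46.9 to 90.1 in YKO, and its log2 fold change was −0.68 (edgeR adjusted p of 0.0603), where the median over better expressed genes was −0.43. With batch as a covariate Erg was called at 0.76 (edgeR adjusted p of 0.0310) and Tal1 at −0.74 (0.0364), Mecom was not at 0.61 (0.0958), and 19.1% of genes were called, with a median over better expressed genes of −0.49. These OKO libraries are also those with the high TMM factors, and OKO1 had 27972 genes over 1 CPM against 15296 to 20579 in the other 18 libraries.

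**Figure D2:**
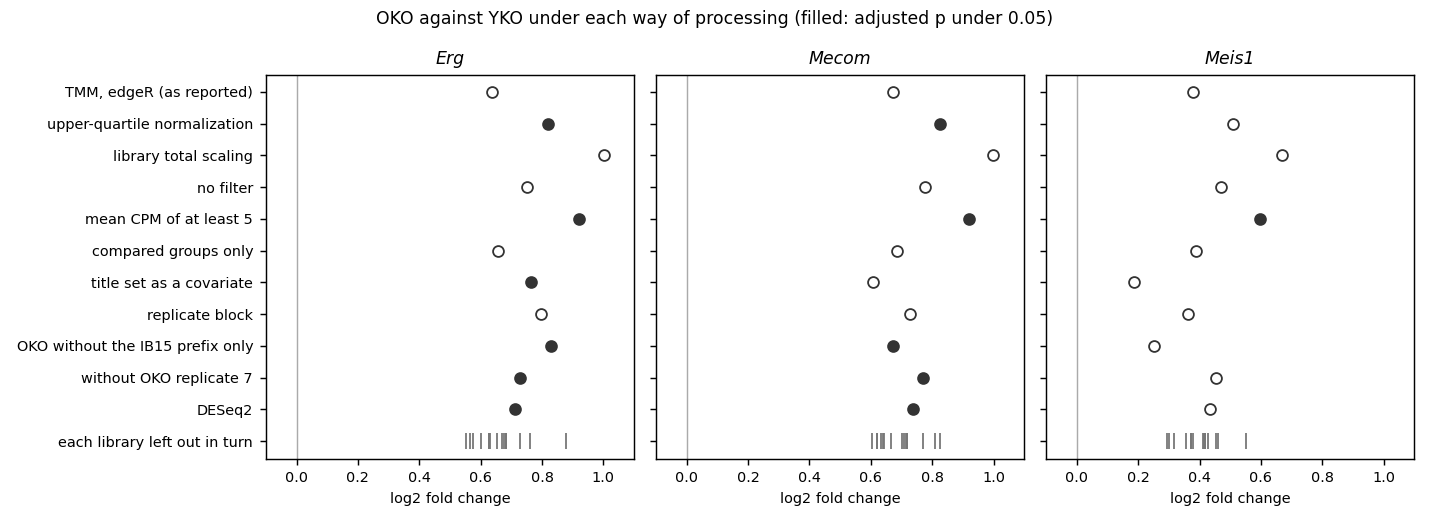
Log2 fold change of Erg, Mecom and Meis1 in OKO vs YKO (horizontal axes) under each way of processing (rows), with filled circles where the adjusted p was under 0.05 and ticks for each library left out in turn. All values lie above 0, and the reported TMM fit is among the lower ones for Erg at 0.64.

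The other members in OKO vs YKO were Meis1 at 0.38 and Hlf at 0.38, Runx1 at 0.28, Lmo2 at 0.22, Fli1 at 0.18, Lyl1 at 0.08, Gata2 at −0.14 and Tal1 at −0.27. Standard errors of all 10 were between 0.20 and 0.25. The B cell marker sum was 41.1 to 170 CPM in OKO and 181 to 1397 in YKO, and the groups did not overlap. Igll1 of the B cell list had a higher median in OKO, 1.88 CPM against 0.876 in YKO, and the rest had lower ones. The erythroid sum was 47.3 to 2009 against 1404 to 3970. The granulocyte and monocyte sum went the other way, at 277 to 523 in OKO and 97.1 to 251 in YKO, also without overlap. Prtn3 of this list had medians of 237 CPM in OKO and 36.6 in YKO. Csf1r, S100a8, S100a9 and Camp had lower medians in OKO, for Csf1r 17.5 against 37.8, and the rest of the list had higher ones. The part of these markers in the members' differences was not tested.

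OKO vs OWT asked for the knockout in old HSCs. None of the 10 members passed the edgeR test, against 0.0327% of all genes, and all 10 had negative log2 fold changes, with a median of −0.34. The median over all genes was 0.12 and over better expressed genes it was −0.19. The smallest member adjusted p was 0.592 (edgeR quasi-likelihood test), 1 member and 2741 genes had an unadjusted p under 0.05, and DESeq2 called 0 members. The granulocyte and monocyte marker sum was 277 to 523 CPM in OKO and 634 to 960 in OWT, without overlap. Csf1r of that list had a higher median in OKO, 17.5 CPM against 16.1 in OWT, and the rest had lower ones. The part of these markers in the members' values was not tested. The shared sign depended on scaling, since with the library total 3 of the 10, Runx1, Tal1 and Erg, turned positive and the members' median was −0.05. No member lay wholly higher in OKO, as 0.46% of genes did, or wholly lower, as 0.359% did.

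Hlf had the largest difference. It ranged from 138 to 372 CPM in OKO, with a median of 259, and stood at 492, 442, 329 and 315 in OWT1 to OWT4. Of the 7 OKO libraries, 2 lay within the OWT range, OKO4 at 372 and OKO5 at 316. The log2 fold change was −0.66 with a standard error of 0.24 (95% interval −1.17 to −0.15), at an edgeR unadjusted p of 0.0133 and an adjusted p of 0.592. With library totals it was −0.34. Within the IB15 batch it was −0.49 (edgeR unadjusted p of 0.0794), and 9 of the 10 members were negative there, with Tal1 at 0.18.

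Mecom at −0.41, Fli1 at −0.39, Lmo2 at −0.38, Gata2 at −0.35, Meis1 at −0.33, Lyl1 at −0.31, Erg at −0.27, Runx1 at −0.20 and Tal1 at −0.13 made up the rest in OKO vs OWT. The 95% intervals of 9 of the 10 lay within a 2-fold change in either direction, and Hlf was the exception. OWT vs YWT and YKO vs YWT share the YWT libraries, and OKO vs YKO and OKO vs OWT share the OKO libraries, so opposite signs across these pairs are not independent.

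**Figure D3:**
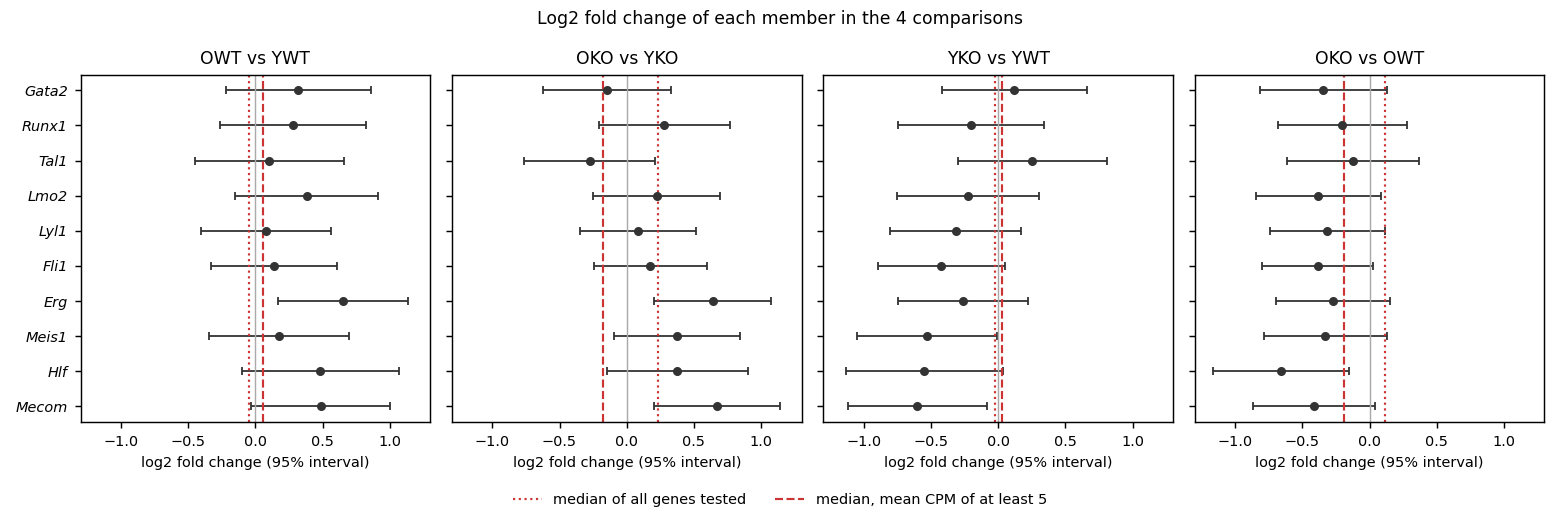
Log2 fold change of each member (horizontal axes) with its 95% interval in the 4 comparisons, with red lines at the median of all genes tested (dotted) and of genes with mean CPM 5 or more (dashed). The intervals of Erg in both comparisons of age, of Mecom in OKO vs YKO and YKO vs YWT, of Meis1 in YKO vs YWT and of Hlf in OKO vs OWT leave out 0, and none passed the adjusted threshold.

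The difference between the comparisons was tested as the genotype by age interaction. It was called for 0% of the 33690 genes, so for 0 of the 10 members, in edgeR, with 1556 genes and 0 members at an unadjusted p under 0.05, while DESeq2 called 8 genes and 0 members. The members' log2 values ran from −0.46 for Gata2 to 0.20 for Meis1, with standard errors of 0.30 to 0.37. Their 95% intervals reached 0.63 to 0.78 to either side, and 8 of them lay within a 2-fold difference in either direction. OWT lies wholly in the IB15 batch, OKO only in part and the young groups not at all, so batch enters this difference. With a batch term edgeR called 0 genes. With OKO1 to OKO3 as the only OKO libraries it called 163 genes, and 0 members were called in either fit.

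Ratios of 2 members within a library do not depend on the scaling between libraries. Those given here were picked from 45 possible pairs after the values were seen, so they are given with no test. How many of the other pairs of members, or of pairs of other genes, lie apart between groups in the same way was not counted. Erg to Fli1, which sets 2 ETS factors side by side, was 0.154, 0.166, 0.150 and 0.122 reads per read in YWT1 to YWT4. In OWT1 to OWT4 it was 0.216, 0.191, 0.211 and 0.238, above all YWT libraries. In OKO it ranged from 0.163 to 0.356 with a median of 0.214, and in YKO from 0.124 to 0.198, so the knockout groups overlapped. The highest ratios of all 19 libraries were those of OKO1, at 0.356, and OKO3, at 0.305.

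Tal1 to Lyl1, the ratio of the related helix-loop-helix factors, was 1.88, 1.73, 1.85 and 2.01 in YKO1 to YKO4 and 1.45, 1.13, 1.2 and 1.31 in YWT1 to YWT4. Every YKO library thus lay above every YWT library, and also above OWT, where the range was 1.09 to 1.64. OKO spread from 1.01 to 2.08 and covered both. Mecom to Gata2 was 0.175, 0.197, 0.240 and 0.236 in YKO1 to YKO4, below each of the other 15 libraries, where the lowest was OKO7 at 0.260. YWT averaged 0.350 ± 0.0445, OWT 0.415 ± 0.0919 and OKO 0.379 ± 0.0736.

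**Figure D4:**
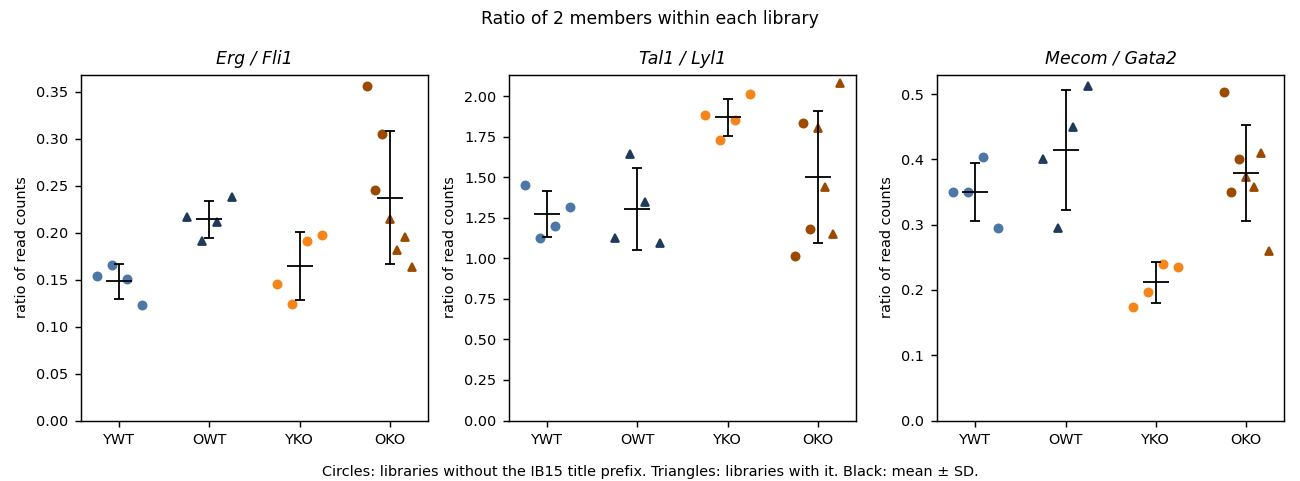
Ratio of read counts of 2 members within each library (vertical axes, linear from 0), with 1 point per library, mean and SD in black, and triangles for the IB15 batch. Erg to Fli1 in OWT (0.191 to 0.238) lies above YWT (0.122 to 0.166), and the YKO libraries lie highest against YWT and OWT for Tal1 to Lyl1 and lowest for Mecom to Gata2.

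Within groups the members varied together. After the group mean was removed from log2(CPM + 1), all 45 pairs of members had a positive Pearson correlation over the 19 libraries, from 0.23 to 0.91 with a median of 0.69. The median between a member and the 12314 other better expressed genes was 0.36. All these values share library, depth and scaling. Removal of the group means leaves in place the batch difference within OKO and the split within IB15 that is described below. Their part in the correlations was not tested. Hlf with Mecom had the highest value, 0.91, followed by Meis1 with Hlf and Fli1 with Meis1, both at 0.88. Tal1 with Erg had the lowest, 0.23. Erg had a median of 0.60 with other members and 0.09 with other genes, while for Tal1 these were 0.61 and 0.51. With scaling by the library total the median over the 45 pairs was 0.81. The median with other genes was not computed under that scaling.

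**Figure D5:**
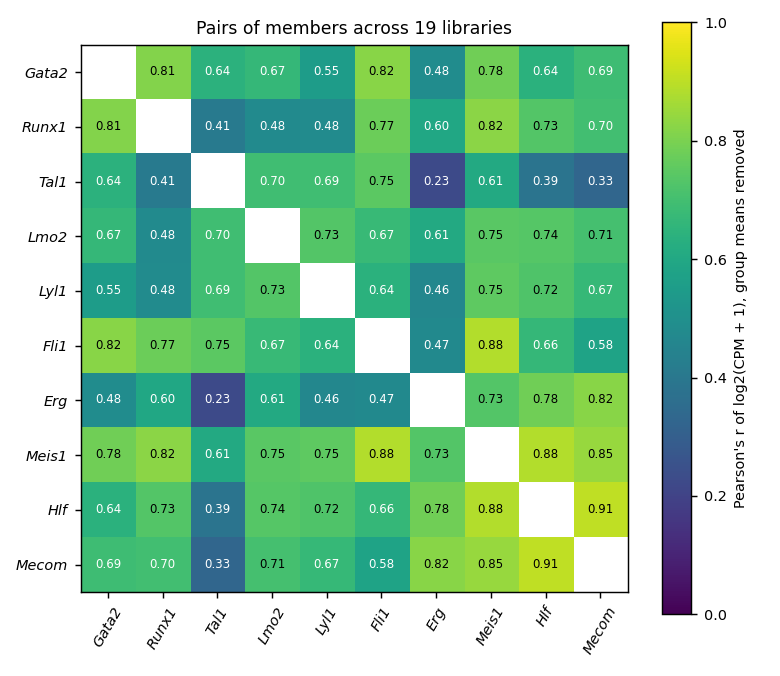
Pearson correlation of each pair of members over 19 libraries, after removal of the group means from log2(CPM + 1), as a colour scale from 0 to 1 with the value in each cell. Meis1, Hlf and Mecom pair at 0.85 to 0.91, Fli1 with Meis1 at 0.88, and Tal1 has the lowest, with Erg (0.23) and Mecom (0.33).

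Genes with the pattern most like each member over the 19 libraries, group differences included, were named by the highest Pearson correlation of log2(CPM + 1). These were Crispld1 for Hlf (0.97), Pik3r1 for Mecom (0.96), Anxa5 for Lmo2 (0.96), Gcnt2 for Meis1 (0.95), Clec1a for Erg (0.94), Zcchc2 for Runx1 (0.94), Gm45669 for Lyl1 (0.94), Patz1 for Gata2 (0.93), Smim10l2a for Fli1 (0.93) and Elp6 for Tal1 (0.91). Nearest to the mean of all 10 members were Eya2 (0.96), Rbpms (0.96) and Afap1l1 (0.95).

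The IB15 batch also split by title number, which was noticed after the values were seen. Its libraries numbered 1 to 4 in their titles are OKO4, OKO5, OWT1 and OWT2, and those numbered 5 to 8 are OWT3, OWT4, OKO6 and OKO7, so each side holds both genotypes. Gata2 ranged from 543 to 790 CPM on the first side and from 381 to 481 on the second. Runx1 ranged from 169 to 192 against 77.0 to 113, Fli1 from 268 to 365 against 189 to 232, and Meis1 from 500 to 615 against 271 to 438. These 4 members lay wholly higher on the first side, as 13.3% of all genes did, and 0 members lay wholly lower, as 8.33% of genes did. With scaling by the library total 3 members lay wholly higher, beside 12.6% of genes. With this number as a covariate in the 8 libraries, edgeR called 0 members and 0.0954% of 26213 genes in OKO vs OWT, and the log2 fold change was −0.53 for Hlf (standard error 0.20) and −0.39 for Erg (standard error 0.14). What the title number stands for was not tested.

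Among 21 partners that form complexes with the core, 1 passed the edgeR test in the lower direction in OKO vs YKO, as 233 of all 33690 genes did. In the other comparisons 0 partners passed in either direction. Gfi1b, a repressor that acts in the erythroid and megakaryocyte lines, fell from 276 ± 62.3 CPM to 121 ± 51.0. Its fall was 1.19 on the log2 scale with a standard error of 0.29 (edgeR adjusted p of 0.0400). The median of the list was −0.32, against 0.23 over all genes and −0.18 over the better expressed genes. In the other comparisons the list medians were 0.04 in OWT vs YWT, 0.02 in YKO vs YWT and −0.26 in OKO vs OWT.

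Among 20 relatives of the members, 1 passed in OKO vs YKO, beside 1.29% of all genes. Meis3, a relative of Meis1, rose from 3.76 ± 0.901 CPM in YKO to 10.7 ± 3.57 in OKO, which is 1.5 on the log2 scale with a standard error of 0.30 (edgeR adjusted p of 0.0125). In YKO vs YWT, Meis3 had −1.53 with a standard error of 0.32 and did not pass with TMM scaling (edgeR adjusted p of 0.138). DESeq2, the fit of those groups alone and the batch covariate each called 1 relative there. Gata3 in OWT vs YWT had 0.75 with a standard error of 0.24 and did not pass. The list medians were 0.06 in OWT vs YWT, −0.13 in YKO vs YWT, 0.07 in OKO vs YKO and −0.28 in OKO vs OWT.

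Among 21 other stem cell factors, 1 passed in the lower direction in OKO vs YKO, Ikzf1, a lymphoid zinc finger factor that fell by 0.92 on the log2 scale (standard error 0.23, edgeR adjusted p of 0.0492). Of all 33690 genes, 233 passed in that direction. Among 21 genes known as targets of the core, Csf1r, the receptor for macrophage colony-stimulating factor, fell by 1.21 (standard error 0.26, edgeR adjusted p of 0.0190), and Gfi1b was the other call. Over all genes, 1.29% were called in OKO vs YKO. Csf1r is also on the granulocyte and monocyte marker list. Kit, Tek, Eng and the remaining targets did not pass. The medians of these lists in OKO vs YKO were −0.02 and 0.02.

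Of all 33690 genes in OKO vs YKO, 201 passed in the higher direction and 233 in the lower direction. Of 19 lineage factors, 0 passed in the higher direction and 5 in the lower direction in OKO vs YKO, with a list median of −0.92. These were Spib, Pax5 and Ebf1, which drive B cell development, Irf8, which acts in B and myeloid cells, and Ikzf1. Spib fell by 5.26 on the log2 scale (standard error 0.73, edgeR adjusted p of 0.000604), from 34.8 ± 32.3 CPM in YKO to 0.910 ± 0.957 in OKO. Irf8 fell by 2.36 (standard error 0.42, edgeR adjusted p of 0.00576), Pax5 had −2.80 (standard error 0.60) and Ebf1 −2.53 (standard error 0.58). The large SD in YKO goes with YKO1 and YKO2, whose B cell marker sums were 673 and 1397 CPM against 233 and 181 in YKO3 and YKO4, and the part of B cells in these differences was not tested. Pax5 and Ebf1 are themselves on the B cell marker list. No lineage factor passed the edgeR test in the other 3 comparisons, while DESeq2 called 1 in YKO vs YWT, beside 142 over all genes. The list medians in these comparisons were −0.11 in OWT vs YWT, 0.56 in YKO vs YWT and −0.17 in OKO vs OWT. The calls of all 5 lists varied with the libraries and the processing used, as did those over all genes. Without YKO1 there were 0 calls in either direction among partners, relatives, other stem cell factors and targets and 2 among lineage factors. Over all genes there were 102 calls then, against 434 with all libraries. Without OKO7 the lists had 4, 2, 3, 6 and 8 calls, and all genes 1822. In the fit of OKO and YKO alone the counts were 0 in the first 4 lists and 2 among lineage factors, beside 115 over all genes. With batch as a covariate the lists had 9, 7, 4, 5 and 9 calls, beside 6420 over all genes.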

How the data were processed

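RNA-seq of sorted mouse HSCs was read from 19 libraries. Per the labels and the study's methods, libraries were made with a SMART-Seq kit, and the authors trimmed reads with Trim Galore (0.4.3) and cutadapt, aligned them to mm10 with STAR and counted them per gene with featureCounts. The deposited values are raw whole-number counts per gene symbol, with no strand setting given in the sources used here. Totals were 22197555 to 77970627 counts per library, and the members held 439 to 86133 counts each, so the spread between libraries and not counting error limits precision.

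Libraries were grouped by genotype and age in the labels. Counts of all 19 libraries were fitted together in edgeR 4.0.16 (R 4.3.3, limma 3.58.1) with TMM scaling and its default filter on low counts, tested by quasi-likelihood with Benjamini-Hochberg adjustment over 33690 genes, and called where adjusted p was below 0.05 with more than 1.5-fold difference (the interaction by adjusted p). Alternatives were upper-quartile and library total scaling, no filter, a mean CPM filter of 5, batch, title number or replicate number as a term, subsets of libraries, each library left out, and DESeq2 1.42.0. Library total scaling and the title number were added after seeing the data. The method was tested on simulated data. Same-numbered libraries did not deviate together (24 pairs, r from −0.470 to 0.304), so numbers were not taken as pairs. No 2 libraries agreed within sampling noise. Positions are from GENCODE M21 and promoters from RefSeq (GRCm38.p6). All 10 members are named, and of each other list at most 4 genes per comparison, those called and then those of smallest p. Members and lists were chosen with earlier results of these data known. Bisulfite libraries were not used here. Values of some listed genes are not reported here.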

Additional observations from a re-analysis of the deposited data

Results flagged for a closer look

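In groups of 4 to 10 libraries, the gap between the most extreme library and its nearest neighbour was set against the group's range (Dixon's 95% critical value). It was exceeded in 3 of the 40 member and group combinations, where chance gives about 2. Tal1 in YWT2 was low, at 43.7104 CPM, with a gap of 0.897 of the range. Fli1 in YWT3 was high, at 303.755 CPM, with a gap of 0.888 of the range. Meis1 in YWT3 was also high, at 550.997 CPM, with a gap of 0.867 of the range.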

How the results depend on the processing

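Of 1430 member fold changes under the alternatives, 1339 kept direction and side of the threshold, 78 changed sign (51 of them interaction terms) and 13 were newly called, all in OKO vs YKO. The causes were not tested. Members called in OKO vs YKO numbered 0 as reported, 2 with upper-quartile scaling, 3 with a mean CPM filter of 5, 2 with batch as a covariate, 2 with OKO1 to OKO3 alone, 2 with DESeq2 and 0 to 2 with each library left out. Changed signs, as log2 values, were as follows. In OKO vs OWT, upper-quartile scaling gave Runx1 0.037 and Tal1 0.066, library totals Runx1 0.11, Tal1 0.093 and Erg 0.089, the CPM filter Runx1 0.080, Tal1 0.092 and Erg 0.032, and Tal1 was 0.15 with batch, 0.18 within IB15 and 0.17 with title number. In OKO vs YKO, Gata2 was 0.14 with library totals and 0.071 with the CPM filter, batch gave Lmo2 −0.053, Lyl1 −0.22 and Fli1 −0.077, OKO1 to OKO3 alone gave Lyl1 −0.15 and Fli1 −0.0126, and Lyl1 ran from −0.0126 to 0.30 with each library left out. In OWT vs YWT, batch gave Tal1 −0.64, Lmo2 −0.073, Lyl1 −0.41, Fli1 −0.28 and Meis1 −0.14, library totals gave Lyl1 −0.0066, and leaving out libraries gave Lyl1 −0.044 to 0.14. In the interaction, upper-quartile scaling gave Lmo2 0.033, Erg 0.22 and Hlf 0.099, library totals 0.17, 0.40 and 0.26, the CPM filter 0.13, 0.33 and 0.20, no filter gave Erg 0.097, DESeq2 Erg 0.091, batch Lmo2 0.019 and Hlf 0.034, and OKO1 to OKO3 alone Runx1 −0.042, Lyl1 −0.23, Fli1 −0.15 and Erg 0.17. Leaving out libraries gave interaction values of −0.10 to 0.22 for Erg, −0.043 to 0.21 for Fli1, −0.23 to 0.048 for Hlf, −0.29 to 0.029 for Lmo2, −0.091 to 0.21 for Lyl1 and −0.090 to 0.20 for Runx1. With the replicate block, which rests on shared numbers alone, Lyl1 was −0.12 in OKO vs YKO, and the interaction was −0.22 for Lyl1, −0.063 for Fli1 and 0.13 for Erg, with 0 members called. Over all genes, OKO vs YKO had 434 calls as reported, 1078 with upper-quartile scaling, 1502 with the CPM filter, 6420 with batch, 1774 with the block, 115 with the 2 groups alone, 6285 with OKO1 to OKO3, 2126 with DESeq2 and 102 (without YKO1) to 1822 (without OKO7) with libraries left out. OWT vs YWT had 1 call, and 0 to 132 elsewhere, YKO vs YWT had 9, and 2 to 142, OKO vs OWT had 11, and 0 to 102, and the interaction had 0, and up to 163.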
